A study of Mus musculus with 16 samples.

Results

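Pramel6 and Pramel7, neighbouring genes of the PRAME-like (Pramel) family, were the measurable members of a set of 6 family genes in mouse embryonic stem cells (mESCs) moved from serum to 2i medium. The set (Pramel1, Pramel3, Pramel4, Pramel5, Pramel6 and Pramel7) was chosen by name, out of 21154 genes with a named probe on the array, after their background flags and levels over all 6 groups of samples had been seen. A probe was counted as belonging to a gene through its RefSeq transcript identifier. Pramel4, Pramel5, Pramel6 and Pramel7 had 1 probe each. No probe carried an identifier of Pramel1 or Pramel3, and their expression was not analysed here. Because the levels of the 6 groups themselves led to the choice, the values of these genes are given as a description and without p-values.

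RNA of 16 samples was hybridised to 1-colour arrays. J1 is a wild-type male mESC line of 129S4/SvJae origin. TKO mESCs lack Dnmt1, Dnmt3a and Dnmt3b, the DNA methyltransferases that copy and establish methylation. The 3B3-3l line lacks Dnmt3a and Dnmt3b and carries exogenous Dnmt3b and Dnmt3l expressed constitutively. Each line was grown in serum medium (15% fetal calf serum, 500 U/ml LIF) and in 2i medium (serum-free N2B27 with 1 µM of the MEK inhibitor PD0325901, 3 µM of the GSK3 inhibitor CHIR99021 and 1000 U/ml LIF) for 2 weeks. There were 4 J1-serum, 3 J1-2i, 2 TKO-serum, 3 TKO-2i, 2 3B3-3l-serum and 2 3B3-3l-2i arrays. According to the methods J1-serum cells were kept on feeder cells and the other cultures on gelatin. Nothing says that replicates came from separate cultures, so errors measure the spread between these samples, which may be technical.

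PRAME-like proteins are built of leucine-rich repeats, and several act as the subunit by which a CUL2 ubiquitin ligase recognises its substrate. Pramel7 is known from the inner cell mass and from naive mESCs, where its protein brings UHRF1, the partner that guides DNMT1 to newly copied DNA, to degradation. Pramel6 is its closest neighbour in the genome, and many other members lie in a large array of copies on mouse chromosome 4 and in a second one on chromosome 5. Oog genes of the same family are named for their expression in oocytes.

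Levels are log2 signals relative to the array's own 75th percentile, so that a level of 0 is the signal of that percentile and lower levels are negative. The 75th percentile lay between an intensity of 1020 and 1800, and 39.7% to 49.0% of spots were well above background on each array. The dimmest signal that the scanner software still marked as well above background was between -2.92 and -2.18, and a value near or below that has an upper bound only. The deleted genes were read first. The Dnmt3a probe was well above background on all 7 J1 arrays (-0.95 to 0.81) and on none of the 9 TKO and 3B3-3l arrays, and the Dnmt1 probe was between -1.70 and -1.42 in TKO, still above background, against 1.61 to 2.45 in J1. The 3 Dnmt3b probes were above background on all TKO arrays. Their means were 2.96, 2.51 and 4.23 in J1-serum, -0.34, -1.27 and 0.35 in TKO-serum and 5.53, -0.999 and 0.78 in 3B3-3l-serum, so they disagree on 3B3-3l. The 8 ES cell markers were well above background on every array. Of the 12 fibroblast markers tested, 11 were well above background on all J1-serum arrays and 4 on all J1-2i arrays, and the log2 of their summed level was 5.60 to 5.89 in J1-serum, 1.24 to 1.39 in J1-2i, 3.67 to 3.76 in TKO-serum, 1.62 to 1.82 in TKO-2i, 5.31 to 5.33 in 3B3-3l-serum and 2.07 to 2.08 in 3B3-3l-2i. All 6 primitive endoderm markers were well above background on all J1-serum arrays, and 3 were so on all TKO-serum and 3 on all 3B3-3l-serum arrays. None was so on all arrays of J1-2i, TKO-2i or 3B3-3l-2i. The part of these cells in the 2i response of each line and in the comparisons between lines was not tested. In bulk RNA, fewer cells of a type and less RNA per cell cannot be told apart.

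The sequences just before the transcription start are shown for 6 family genes, to set Pramel6 and Pramel7 beside 2 genes that rose in 2i in all lines (Pramel14, Pramel30) and 2 that turned in opposite directions in TKO and 3B3-3l (Pramel31, Pramel39). Each run holds the 250 bases 5′ of the start in RefSeq (build GRCm38.p6), read 5′ to 3′ on the strand of the gene, with every CpG in capitals. Pramel7 lies at chr2:87492419-87492668 (minus strand), Pramel14 at chr4:143994370-143994619 (minus strand), Pramel30 at chr4:144329999-144330248 (plus strand), Pramel6 at chr2:87506315-87506564 (plus strand), Pramel31 at chr4:144357714-144357963 (plus strand) and Pramel39 at chr5:94306797-94307046 (minus strand).
Pramel7: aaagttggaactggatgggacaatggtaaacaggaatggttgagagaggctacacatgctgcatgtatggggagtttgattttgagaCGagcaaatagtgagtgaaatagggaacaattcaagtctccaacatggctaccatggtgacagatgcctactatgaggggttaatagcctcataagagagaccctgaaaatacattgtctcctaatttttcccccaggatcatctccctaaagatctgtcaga
Pramel14: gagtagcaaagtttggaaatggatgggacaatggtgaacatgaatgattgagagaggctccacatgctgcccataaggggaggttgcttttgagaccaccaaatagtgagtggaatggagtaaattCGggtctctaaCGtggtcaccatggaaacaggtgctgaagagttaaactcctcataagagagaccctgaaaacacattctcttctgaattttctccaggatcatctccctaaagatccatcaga
Pramel30: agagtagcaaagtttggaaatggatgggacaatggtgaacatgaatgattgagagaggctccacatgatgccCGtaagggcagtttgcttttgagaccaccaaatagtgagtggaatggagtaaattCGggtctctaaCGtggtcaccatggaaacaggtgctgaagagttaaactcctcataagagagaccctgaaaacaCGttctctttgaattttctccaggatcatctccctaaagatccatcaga
Pramel6: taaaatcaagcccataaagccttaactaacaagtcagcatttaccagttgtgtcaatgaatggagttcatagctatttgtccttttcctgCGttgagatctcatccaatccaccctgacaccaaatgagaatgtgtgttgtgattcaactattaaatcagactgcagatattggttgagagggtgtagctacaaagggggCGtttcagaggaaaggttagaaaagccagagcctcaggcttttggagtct
Pramel31: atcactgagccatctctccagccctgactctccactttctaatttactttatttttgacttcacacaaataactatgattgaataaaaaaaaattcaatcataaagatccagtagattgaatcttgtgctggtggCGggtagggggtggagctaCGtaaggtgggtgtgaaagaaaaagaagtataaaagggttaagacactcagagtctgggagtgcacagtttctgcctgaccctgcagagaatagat
Pramel39: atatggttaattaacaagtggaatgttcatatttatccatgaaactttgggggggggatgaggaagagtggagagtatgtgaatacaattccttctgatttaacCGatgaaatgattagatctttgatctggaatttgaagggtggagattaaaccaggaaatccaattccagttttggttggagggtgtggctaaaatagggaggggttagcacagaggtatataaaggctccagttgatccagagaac

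Some of the 14 upstream sequences compared formed pairs of close copies. Pramel14 and Pramel30 had 244 of 250 aligned bases in common (97.6%), Pramel39 and Pramel50 had 246 (98.4%), Pramel4 and Pramel5 had 220 (88.0%), and Pramel20 and Pramel31 had 204 (81.6%). Pramel7 on chromosome 2 was 81.6% identical to Pramel14 and 80.4% to Pramel30, both on chromosome 4. With its own neighbour Pramel6 it was 54.8% identical. Pramel1, Pramel3, Pramel6, Pramel13 and Pramel19 were at most 63.6% identical to any other.

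These upstream regions held few CpGs, the dinucleotide that carries DNA methylation. Pramel7 had 1 CpG, Pramel6 2, Pramel14 2, Pramel30 4, Pramel31 2 and Pramel39 1, against a median of 6 (quartiles 2 and 16) over 27025 promoters of the same length. Of the family genes set beside them, Pramel1 had 18, and it is the one with the highest GC content (59.6%).

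A set of 5 motifs was looked for on both strands. The STAT3 motif TTCNNNGAA, the OCT4 octamer ATGCAAAT and the ESRRB motif AAGGTCA were in none of the 14 family promoters searched, where 7.18%, 1.61% and 4.05% of all promoters hold them. The TATA box TATAAA (13.0% of all promoters) was in Pramel20, Pramel31, Pramel39 and Pramel50, with its first base 28 bases before the start in Pramel39 and in Pramel50. The TCF motif CTTTGA (14.0% of all promoters) was in Pramel13, Pramel30, Pramel39 and Pramel50. No motif overlapped another in these promoters. A match is a description of the letters only.

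Pramel7 was above background in 2i in 2 of the 3 lines. In J1-2i the level was -2.04, -1.96 and -2.07, and the probe was well above background on 3 of 3 arrays. In TKO-2i it was -2.05, -2.12 and -2.33, again on 3 of 3 arrays. The 2 groups overlapped, and both sat only a little above the limit of detection.

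In serum no line gave a Pramel7 signal well above background. The level was -2.91, -2.67, -2.96 and -2.72 in J1-serum, -2.997 and -2.92 in TKO-serum, and -2.76 and -3.07 in 3B3-3l-serum. These 3 groups overlapped, and each of their arrays was below each array of J1-2i and TKO-2i.

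In 3B3-3l-2i Pramel7 was read at -3.49 and -3.42, not well above background on either array. J1-2i and TKO-2i were thus the highest groups and did not differ beyond their spread. The other 4 groups were not well above background on any array and have no order. Replicate 2 of J1-serum (-2.67) was above its array's limit of -2.81, yet was not marked as well above background.

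**Figure D1:**
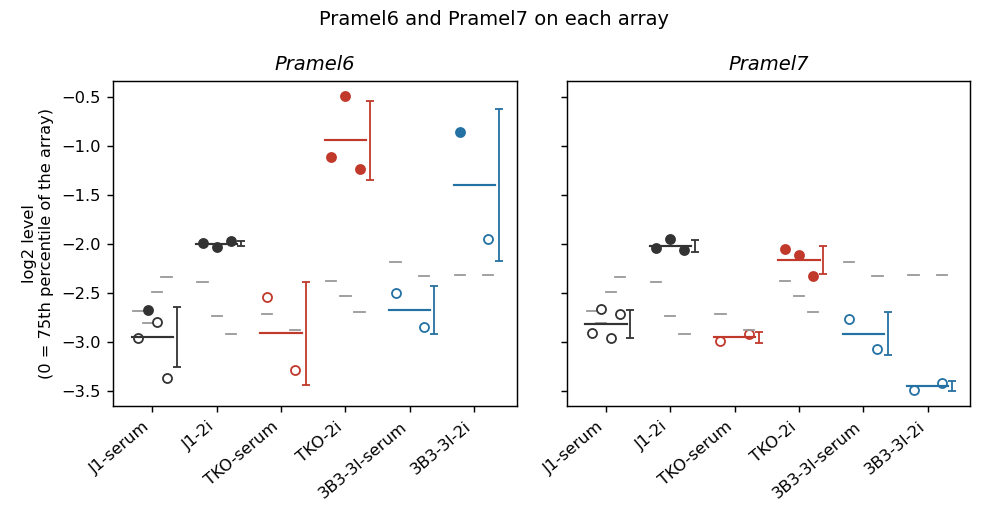
Level of Pramel6 and Pramel7 on each of the 16 arrays, as log2 signal relative to the array's 75th percentile. Filled points were well above background and open points were not, the short grey line beside each point is the dimmest signal well above background on that array, long lines are group means and error bars 1 SD; Pramel7 points are filled in J1-2i and TKO-2i and open elsewhere, and Pramel6 reaches its highest level, -0.49, in TKO-2i.

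The fitted 2i response of Pramel7 was 0.79 ± 0.11 (SE) on the log2 scale in J1 and 0.79 ± 0.13 in TKO. It was at least 1.44-fold and 1.55-fold once each serum array was held at its limit of detection, or at its own value if higher. The 3B3-3l response was -0.54 ± 0.14, with both groups below the limit. The same line in 2i was 1.43 below J1-2i (SE 0.13), at least 1.23-fold lower. That 3B3-3l difference in 2i rests on signals near background: when the background was modelled by normexp it was -0.58.

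The fitted difference between the 2i responses was 0.00 in size for TKO against J1 (SE 0.17). For 3B3-3l it was -1.33 against J1 (SE 0.18) and -1.33 against TKO (SE 0.19). Both 3B3-3l groups were below the limit of detection, so these sizes were not measured, and both calls were lost under normexp (-0.66 and -0.785). Within single slides the J1 response of Pramel7 was 0.78 on slide 1 and 0.71 on slide 2, the TKO response was 0.73 on slide 1, and the 3B3-3l response was -0.54 on slide 3. All 4 3B3-3l arrays were on slide 3 with 1 J1-serum array and no other J1-2i or TKO array, so slide and line cannot be told apart in 2i within a slide. With slide as a block, which rests on that J1-serum array, the Pramel7 difference of 3B3-3l from J1 in 2i was -1.31.

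Pramel6 was read higher on the 2i arrays than on the serum arrays of each line. The J1 response was not called, and the 3B3-3l call was lost under normexp. The level was -1.99, -2.03 and -1.97 in J1-2i, -1.11, -0.49 and -1.23 in TKO-2i, and -0.85 and -1.95 in 3B3-3l-2i. It was well above background on 3, 3 and 1 of these arrays, respectively. In serum it was -2.96, -2.67, -2.80 and -3.37 in J1, -2.54 and -3.29 in TKO and -2.50 and -2.85 in 3B3-3l. Of the serum arrays 1, of J1, was well above background. No 2i array fell within the range of the serum arrays.

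Pramel6 was higher on each TKO-2i array than on any J1-2i array. 3B3-3l-2i has no place in this order, since its array above background (-0.85) lay within the range of TKO-2i and the other (-1.95) was not well above background. The 3 serum groups overlapped. The 2 3B3-3l-2i arrays differed by more than the full range of any other 2i group.

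The fitted 2i response of Pramel6 was 0.96 ± 0.28 in J1, 1.97 ± 0.33 in TKO and 1.28 ± 0.36 in 3B3-3l. TKO-2i was at least 3.41-fold above TKO-serum. For 3B3-3l-2i, with 1 of 2 arrays above background, no bound is given. TKO exceeded J1 in 2i by 1.05 ± 0.30, a call lost under normexp, median scaling, quantile normalization and the authors' table (0.80 to 0.99) and without any 1 of the J1-2i arrays or TKO-2i replicate 2. The 3B3-3l value less that of J1 in 2i was 0.60 ± 0.33, which rests on the 1 array above background. In serum 1 of 8 arrays was above background, so no difference between lines is given, and the fitted 2i responses have no exact size.

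Without replicate 1 of 3B3-3l-2i the 3B3-3l response of Pramel6 was 0.73, and without replicate 2 of TKO-2i the TKO excess over J1 in 2i was 0.83. The J1 response stood near the 2-fold limit and was 1.12 when arrays were centred on their median. Normexp gave 0.54 in J1, 1.39 in TKO and 0.80 in 3B3-3l. Within slides it was 1.104 (slide 1) and 0.64 (slide 2) in J1 and 2.05 (slide 1) in TKO.

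Counted as calls (2-fold or more, with a limma adjusted p no higher than 0.05), Pramel6 and Pramel7 gave 0 of 2 for the 2i response in J1, where 21.0% of all probes tested were called. They gave 1 of 2 (Pramel6, higher) in TKO, where 13.7% of probes were called, and 1 of 2 (Pramel6, higher) in 3B3-3l, where 11.0% were. Between lines they gave 0 of 2 for TKO against J1 in serum (15.4% of probes), 1 of 2 (Pramel6, higher) in 2i (7.68%), 0 of 2 for 3B3-3l against J1 in serum (17.7%) and 1 of 2 (Pramel7, lower) in 2i (15.3%). For the differences between responses, 0 of 2 were called for TKO minus J1 (14.0%), and Pramel7 alone, lower, for 3B3-3l minus J1 (15.4%) and 3B3-3l minus TKO (8.66%). Of these calls, that of Pramel6 between TKO and J1 in 2i and all 3 of Pramel7 were lost under normexp, as was that of Pramel6 in 3B3-3l. The choice of the genes used these contrasts, so nothing is read from the counts.

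Pramel4 and Pramel5, which lie in the chromosome 4 array, were well above background on 0 of 16 arrays. Group means were -4.81 to -3.74 for Pramel4 and -4.84 to -4.33 for Pramel5, all below the limit of detection, and no difference is drawn from them.

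The wider family was measured too. Of 27 other PRAME-like genes with a probe, 14 passed the filter (all arrays of some group well above background), which a gene high in a single group passes too. The other 13 (such as Prame, Oog3, Oog4, Pramel15 and Pramel22) did not pass it. Sequences of the probes were not used here, and near-identical copies such as Pramel14 with Pramel30 or Pramel39 with Pramel50 may share signal, so their values are uncertain as values of single genes. These genes, too, were listed with earlier results of the arrays known, and no p-value is given for them.

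**Figure D2:**
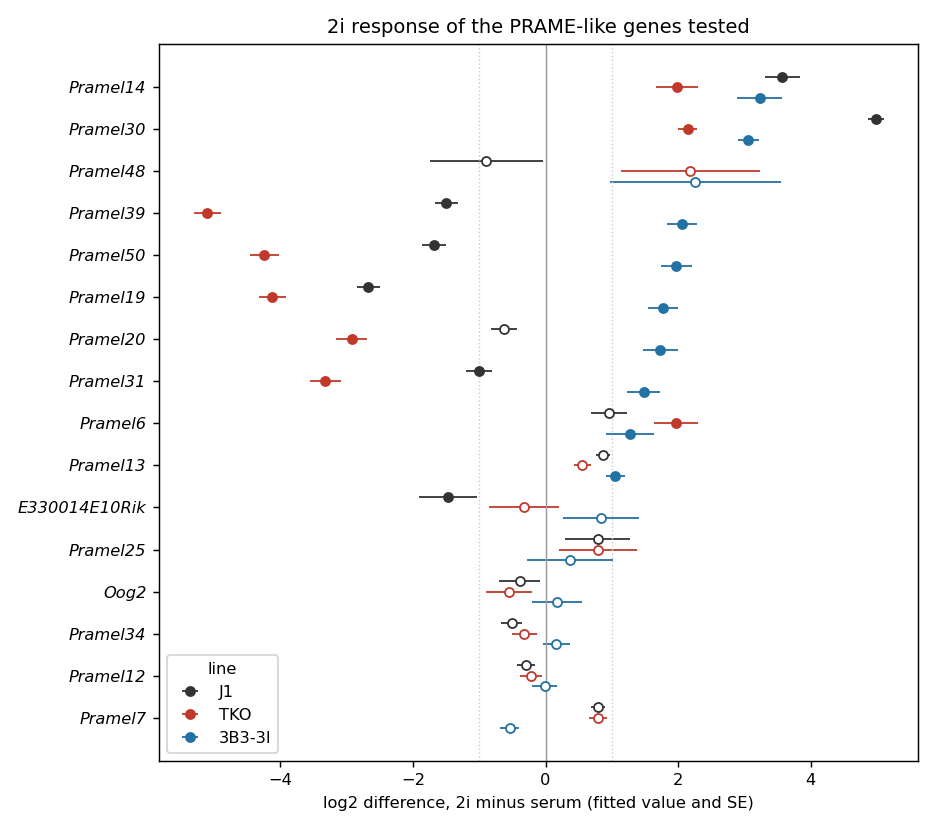
Fitted 2i response (2i minus serum, log2) of the 16 PRAME-like genes tested, in J1, TKO and 3B3-3l, with the SE as bars; filled points were called (2-fold, dotted lines at -1 and 1, and an adjusted p no higher than 0.05). Pramel14 and Pramel30 lie to the right in all 3 lines, and Pramel19, Pramel20, Pramel31, Pramel39 and Pramel50 lie to the left in TKO and to the right in 3B3-3l.

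Of the 14 genes, 2 rose and 5 fell in 2i in J1, 2 rose and 5 fell in TKO, and 8 rose with none falling in 3B3-3l, where the same percentages as above (21.0%, 13.7% and 11.0%) of all probes were called. The median response of the 14 was -0.57 in J1, -0.33 in TKO and 1.60 in 3B3-3l, against medians over all probes tested of 0.05, 0.08 and -0.02. Of the genes that fell in J1, E330014E10Rik had overlapping groups and a response of -2.08 on slide 1 and 0.14 on slide 2. The 5 genes called in none of the 3 lines were Oog2, Pramel12, Pramel25, Pramel34 and Pramel48. Pramel48 had a value on 1 3B3-3l-serum array only, so its 3B3-3l response of 2.26 rests on that array.

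Pramel14 and Pramel30, the near copies of each other, rose in 2i in every line. Pramel30 was -4.36, -4.76, -4.51 and -4.41 in J1-serum and 0.43, 0.48 and 0.50 in J1-2i. In TKO it was -3.40 and -3.14 in serum and -1.25, -1.22 and -0.91 in 2i. In 3B3-3l it was -2.58 and -2.47 in serum and 0.45 and 0.62 in 2i. No serum array was well above background and each 2i array was. J1-2i and 3B3-3l-2i overlapped, and TKO-2i lay below both.

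The 2i response of Pramel30 amounted to a minimum of 8.27-fold for J1, 3.19-fold for TKO and 6.91-fold for 3B3-3l (fitted 4.98 ± 0.12, 2.14 ± 0.14 and 3.06 ± 0.16). Pramel14 was -1.002, -0.68 and -0.80 in J1-2i, -2.82, -2.62 and -2.02 in TKO-2i and -0.98 and -0.61 in 3B3-3l-2i. It was above background on 1 of the 3 TKO-2i arrays, on all 5 other 2i arrays and on no serum array. The lower bounds of its response were 3.37-fold (J1) and 2.74-fold (3B3-3l), and none is given for TKO.

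In 2i, TKO was below J1 for both genes, by 1.59 ± 0.13 for Pramel30 and by 1.66 ± 0.28 for Pramel14 (no exact size, with 2 TKO-2i arrays dim), whereas 3B3-3l differed from J1 by 0.07 ± 0.14 and 0.03 ± 0.32. Among the 14 upstream sequences compared, that of Pramel7 was the closest to theirs outside the pair. Pramel7 stood at background in 3B3-3l-2i, where Pramel14 and Pramel30 were as high as in J1-2i within the spread of the arrays. Pramel13, above background on all 16 arrays, was 2.19 to 2.29 in J1-serum and 3.10 to 3.13 in J1-2i, and 1.89 and 2.01 in 3B3-3l-serum against 2.74 and 3.25 in 3B3-3l-2i. Its response of 0.87 ± 0.11 in J1, 0.55 ± 0.13 in TKO and 1.05 ± 0.14 in 3B3-3l passed the call in 3B3-3l, and normexp put it at 0.94 there.

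**Figure D3:**
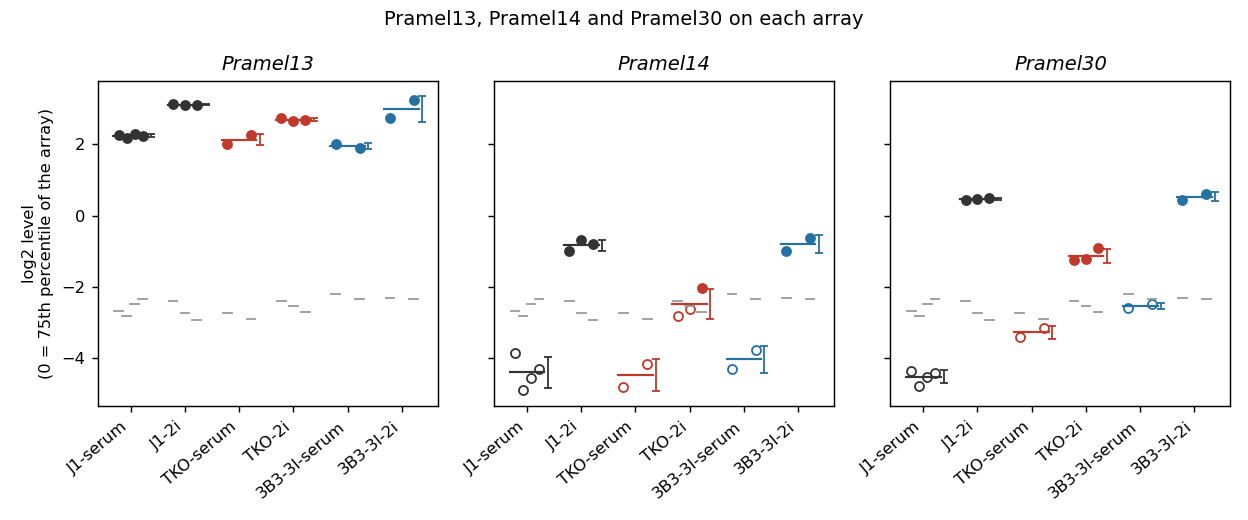
Level of Pramel13, Pramel14 and Pramel30 on each array (log2 relative to the 75th percentile), with points, lines and bars as in the plot of Pramel6 and Pramel7. Pramel14 and Pramel30 are open in serum, and in 2i TKO sits below J1 and 3B3-3l.

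A group of 5 genes turned in opposite directions in TKO and 3B3-3l: Pramel19, Pramel20, Pramel31, Pramel39 and Pramel50 were called lower in TKO-2i and higher in 3B3-3l-2i than in serum. Of these, 4 (not Pramel20) were also called lower in J1-2i. Over all probes 0.498% were called in these opposite directions and 0.379% were also called lower in J1-2i. The genes were listed with such results known, so nothing is read from the difference.

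Pramel39, on chromosome 5, fell in TKO and rose in 3B3-3l. It was 0.33 and 0.52 in TKO-serum and -4.57, -4.66 and -4.80 in TKO-2i, where it was not well above background, at least 7.79-fold lower (fitted -5.10 ± 0.21). In 3B3-3l it was -2.64 and -2.94 in serum, below background, and -0.85 and -0.62 in 2i, at least 2.87-fold higher (fitted 2.06 ± 0.23). In J1 it went from -0.85, -0.22, -0.29 and -0.41 to -2.29, -1.84 and -1.68 (fitted -1.496 ± 0.17, with 1 of the 3 J1-2i arrays not well above background). None of the 3 pairs of groups overlapped.

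Its near copy Pramel50 followed the same course. The level was -0.64 and -0.21 in TKO-serum, -4.48, -4.60 and -4.91 in TKO-2i, -3.75 and -3.40 in 3B3-3l-serum and -1.61 and -1.59 in 3B3-3l-2i. It was above background on no TKO-2i or 3B3-3l-serum array, and was at least 4.33-fold lower in TKO-2i and at least 1.57-fold higher in 3B3-3l-2i than in serum. The fitted J1 response was -1.69 ± 0.18, again with 1 J1-2i array not well above background. By their second probes, dim in the same groups, Pramel39 and Pramel50 were at least 5.82-fold and 4.98-fold lower in TKO-2i and at least 1.61-fold and 1.33-fold higher in 3B3-3l-2i.

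Pramel20 was the one of the 5 measured on all 16 arrays, so its changes are no bounds. It was 0.31, 0.72, 0.61 and 0.40 in J1-serum, -0.22, 0.03 and -0.17 in J1-2i, 1.47 and 1.65 in TKO-serum, -0.81, -1.41 and -1.87 in TKO-2i, -1.485 and -1.502 in 3B3-3l-serum and 0.37 and 0.11 in 3B3-3l-2i. TKO-serum was thus the highest group and 3B3-3l-serum was within the range of TKO-2i. It fell by 2.92 ± 0.24 in TKO (7.59-fold) and rose by 1.73 ± 0.26 in 3B3-3l (3.31-fold), with -0.63 ± 0.20 in J1.

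Pramel31, which lies next to Pramel30 on chromosome 4, was 0.36 and 0.61 in TKO-serum and -2.60, -3.11 and -2.78 in TKO-2i, at least 8.14-fold lower. In 3B3-3l it was -1.96 and -2.59 in serum and -0.95 and -0.65 in 2i, a fitted rise of 1.48 ± 0.25, with no exact size because 1 of the 2 serum arrays was not well above background. By its other 2 probes, above background on no TKO-2i or 3B3-3l-serum array, it was at least 6.02-fold and 5.71-fold lower in TKO-2i and at least 1.81-fold and 2.56-fold higher in 3B3-3l-2i. The J1 response of -1.01 ± 0.19 was at the 2-fold limit, and it was -0.84 with arrays centred on their median and -0.79 with normexp.

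Pramel19 was above background in J1-serum and TKO-serum and not in 3B3-3l-serum. It was 0.43, 0.43, 0.58 and 0.55 in J1-serum, -0.12 and 0.18 in TKO-serum and -4.20 and -3.45 in 3B3-3l-serum. In 2i it was -2.22, -2.10 and -2.21 in J1, -4.13, -4.29 and -3.85 in TKO and -2.26 and -1.85 in 3B3-3l. The difference between 3B3-3l and J1 in serum was at least 6.73-fold. The 2i response was -2.67 ± 0.17 in J1, and at least 5.93-fold down in TKO. In 3B3-3l it was called higher in 2i, but no size is given, since neither serum array and 1 of the 2 2i arrays was well above background.

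**Figure D4:**
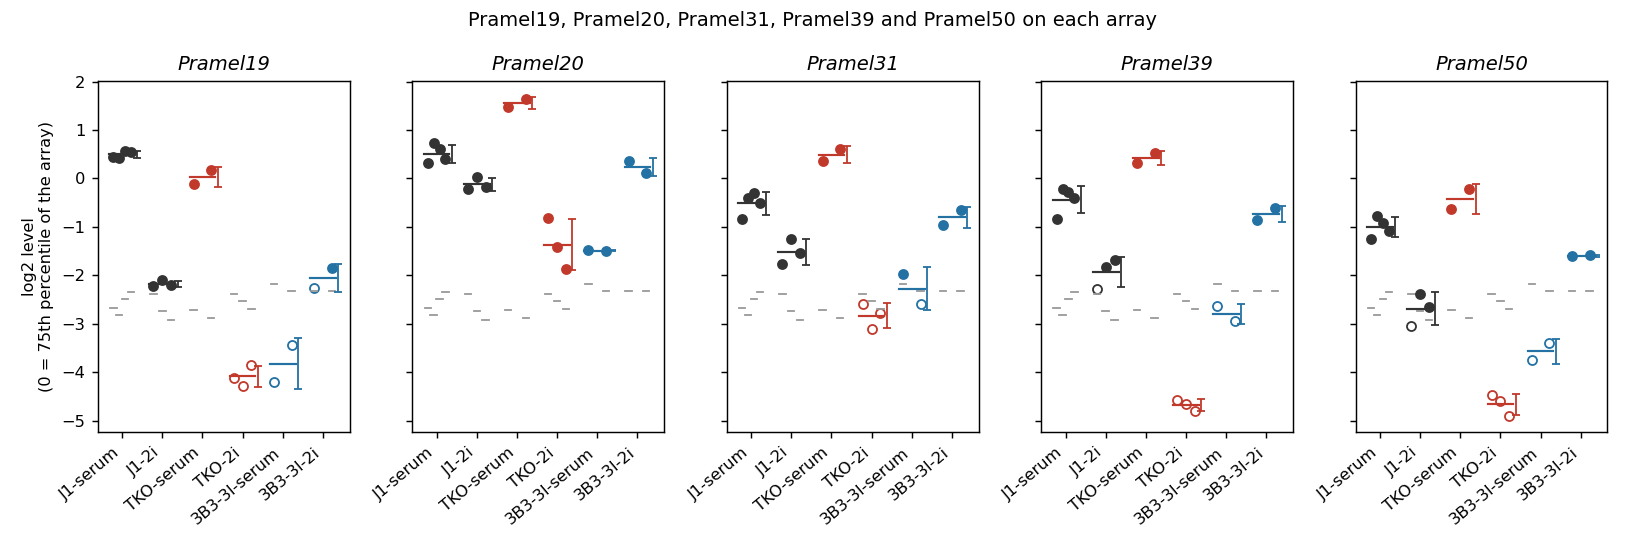
Level of Pramel19, Pramel20, Pramel31, Pramel39 and Pramel50 on each array (log2 relative to the 75th percentile), with points, lines and bars as in the plot of Pramel6 and Pramel7. TKO points drop from serum to 2i and 3B3-3l points rise; for Pramel39 they go from 0.33 and 0.52 to between -4.80 and -4.57 in TKO, and from -2.94 and -2.64 to -0.85 and -0.62 in 3B3-3l.

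The difference between the fitted responses of 3B3-3l and TKO was 4.65 ± 0.35 for Pramel20, the one measured on all arrays. For Pramel19, Pramel39 and Pramel50 neither TKO-2i nor 3B3-3l-serum was above background, and for Pramel31 TKO-2i was not, so their differences have no exact size and no order. These 5 were the genes called in that contrast out of 14 (8.66% of all probes). For 3B3-3l minus J1, 6 of the 14 were called higher and 1 (Pramel30) lower (15.4% of probes), and for TKO minus J1 7 were called lower (14.0%). The Pramel30 difference has no measured size, since no serum array of any line was above background for it and its value in 2i differed by 0.07 ± 0.14 between 3B3-3l and J1.

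Between lines, 3 of the 14 genes (Pramel20, Pramel30 and Pramel31) were called higher in TKO than in J1 in serum (15.4% of probes), and Pramel31 stood at the limit, at 2.00-fold. In 2i, 7 were lower in TKO and 1, E330014E10Rik, higher (7.68%). The arrays of E330014E10Rik overlapped, and its difference was 2.34 on slide 1 and -0.26 on slide 2. For 3B3-3l against J1, 5 were lower and 1, Pramel30, higher in serum (17.7%), and 3 were higher in 2i (15.3%), among them Pramel39 (fitted 1.2025 ± 0.21) and Pramel50 (fitted 1.09 ± 0.22), with no exact size because 1 of the 3 J1-2i arrays was dim for both. The second probes of these genes gave 0.64 for Pramel39 and 0.79 for Pramel50 and were not called, while 1 of the 3 Pramel31 probes was called (1.51). The third gene was E330014E10Rik, by a main probe above background on no array of either group. Its other tested probe was above background on both 3B3-3l-2i arrays (mean -1.98) and on no J1-2i array, at least 1.62-fold higher. In serum Pramel30 was below background in all 3 lines, and its serum differences were 0.54 for TKO and 0.87 for 3B3-3l under normexp.

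Pramel12 differed from both patterns. It was well above background on all 16 arrays, with a mean of 1.97 ± 0.20 (SD, n = 4) in J1-serum, 1.67 ± 0.12 (n = 3) in J1-2i, 1.205 ± 0.004 (n = 2) in TKO-serum, 0.98 ± 0.04 (n = 3) in TKO-2i, 2.28 ± 0.32 (n = 2) in 3B3-3l-serum and 2.27 ± 0.30 (n = 2) in 3B3-3l-2i. Its 2i responses and its differences from J1 stayed under 2-fold. The means of TKO and 3B3-3l lay further apart, and that difference was not tested.

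Among 13641 genes not listed in the family, those with levels most like each Pramel gene over the 16 arrays were found by Pearson's r. The family was listed by gene symbol, so copies under other names can be among these genes. The arrays form 6 groups, so r describes mainly the group means. Pramel7 was above background on 6 of the 16 arrays and Pramel6 on 8. Of the family genes named here, only Pramel12, Pramel13, Pramel20 and Pramel34 were above it on all 16. For the others r also uses values at background, so their matches are uncertain. Pramel7 was most like Pga5 (r = 0.944), Pfkfb2 (0.922) and Pcm1 (0.921), and Pramel6 most like Cbs (0.925), Rngtt (0.921) and Pkmyt1 (0.914). Pramel14 was most like Prdx3 (0.963), and Pramel30 most like Sh3gl2 (0.976). Pramel12 was most like Dnmt3b (0.899, by the main probe of Dnmt3b), Pramel13 most like LTO1 (0.973) and Pramel20 most like Upb1 (0.936). For Pramel25 it was Gprc5d (0.989), for Pramel34 Calml4 (0.837) and for E330014E10Rik Lhx1 (0.906). Pramel19 was most like Tcstv1 (0.988), a gene of the 2-cell stage, whereas Pramel31 and Pramel50 were both most like Gm11544 (0.963 and 0.982) and Pramel39 most like Gm13043 (0.982), which lies in the chromosome 4 array between Oog4 and Pramel20. By Spearman's rho the ranks changed: Cbs ranked 72, Rngtt 9 and Pkmyt1 55 for Pramel6, Pga5 ranked 10, Pfkfb2 25 and Pcm1 8 for Pramel7, and Sh3gl2 ranked 38 for Pramel30. Prdx3 ranked 3 for Pramel14, Tcstv1 2 for Pramel19, Gm11544 4 for Pramel31 and 5 for Pramel50, and Gm13043 6 for Pramel39. Dnmt3b ranked 3 for Pramel12, LTO1 4 for Pramel13 and Upb1 2 for Pramel20. Gprc5d ranked 3 for Pramel25, Calml4 6 for Pramel34 and Lhx1 38 for E330014E10Rik.

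Genes of the 2-cell-like state, a rare state of mESCs marked by Zscan4, were set beside the family. This list and those that follow were also chosen with earlier results of the arrays known, so the p-values of their genes, adjusted over all probes, are no independent support for a pattern. Of 18 genes listed, 9 had a tested probe. In 2i 6 of the 9 fell in J1 and 6 in TKO with none rising, and 5 rose in 3B3-3l with none falling, where 21.0%, 13.7% and 11.0% of all probes were called. The median response was -2.11, -2.07 and 1.74. Zscan4b fell at least 44.1-fold in TKO-2i (limma, adjusted p = 1.65e-12) and rose by 2.58 ± 0.13 in 3B3-3l-2i (limma, adjusted p = 2.67e-08). Zscan4f fell at least 63.8-fold in TKO-2i (limma, adjusted p = 1.21e-11) and rose by 2.40 ± 0.17 in 3B3-3l-2i (limma, adjusted p = 4.95e-07). No group overlapped its counterpart for these genes.

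The genes on which Pramel7 protein acts were measured as RNA, which does not report the degradation of a protein. Uhrf1, the substrate, was 3.37 ± 0.12 (SD, n = 4) in J1-serum and 4.55 ± 0.13 (n = 3) in J1-2i, 3.58 ± 0.03 (n = 2) in TKO-serum and 4.67 ± 0.16 (n = 3) in TKO-2i, and 4.05 ± 0.08 (n = 2) in 3B3-3l-serum and 4.68 ± 0.03 (n = 2) in 3B3-3l-2i. It rose in 2i by 1.18 ± 0.10 in J1 (limma, adjusted p = 6.96e-07) and by 1.09 ± 0.12 in TKO (limma, adjusted p = 1.44e-05), and its value in 3B3-3l was 0.63 ± 0.13. The second Uhrf1 probe gave 1.49 in J1, 0.75 in TKO and 1.14 in 3B3-3l, so the 2 probes disagree on which of TKO and 3B3-3l passes the 2-fold limit. In 2i TKO and 3B3-3l differed from J1 by 0.12 ± 0.11 and 0.13 ± 0.12 by the first probe and by 0.14 ± 0.14 and 0.28 ± 0.16 by the second, none of them called.

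**Figure D5:**
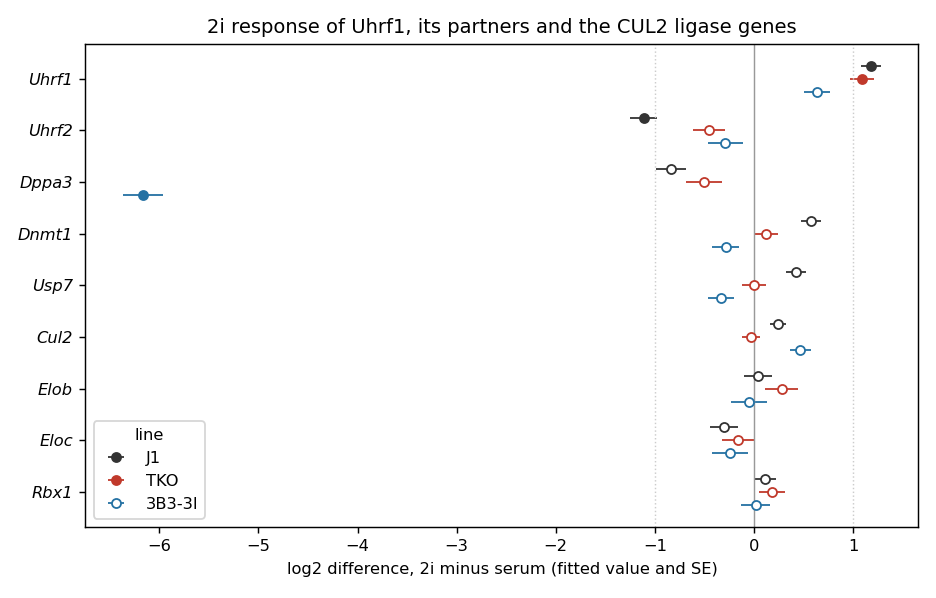
Fitted 2i response (log2, with SE) of Uhrf1, its paralog Uhrf2, its partners and the genes of the CUL2 ubiquitin ligase, in J1, TKO and 3B3-3l; filled points passed the call. Uhrf1 lies right of 0 in all 3 lines, and Dppa3 in 3B3-3l lies at -6.16.

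Of the 9 genes of this list, 1 rose (Uhrf1) and 1 fell (Uhrf2, -1.11 ± 0.14, limma, adjusted p = 1.88e-05) in J1-2i, 1 rose (Uhrf1) in TKO-2i, and 1 fell (Dppa3) in 3B3-3l-2i. These counts are near the shares of all probes called (21.0%, 13.7% and 11.0%). Median responses were 0.11, 0.00 and -0.24. The ligase genes Cul2, Elob, Eloc and Rbx1 moved by -0.30 to 0.47 by their main probe in the 3 lines. Of the 4 probes of Cul2, 2 passed the call in J1-2i (1.03 and 1.67) and the main one did not (0.24 ± 0.08).

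Dppa3, whose protein keeps UHRF1 away from chromatin, was also not above background in 3B3-3l-2i. Its level was 2.16 to 2.33 in J1-serum, 1.33 to 1.55 in J1-2i, 2.07 and 2.24 in TKO-serum, 1.41 to 1.79 in TKO-2i and 1.72 and 2.43 in 3B3-3l-serum, and then -4.13 and -4.05 in 3B3-3l-2i, where it was not well above background on either array. It fell at least 21.1-fold in 3B3-3l-2i against serum (limma, adjusted p = 1.38e-09) and was at least 13.5-fold lower than in J1-2i (limma, adjusted p = 1.42e-09). Dnmt1, the enzyme that UHRF1 guides, was 2.06 ± 0.21 (SD, n = 2) in 3B3-3l-2i and 2.38 ± 0.07 (n = 3) in J1-2i. Usp7, the deubiquitinase that protects both proteins, was higher in 3B3-3l-serum than in J1-serum by 1.098 (limma, adjusted p = 5.82e-06), and by 0.83 in the authors' table.

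LIF and STAT3 act upstream of Pramel7 in mESCs. Of the 13 STAT3 pathway and target genes tested, 5 rose and 1 fell in J1-2i, 1 rose and 1 fell in TKO-2i and 2 rose and 1 fell in 3B3-3l-2i, with median responses of 0.30, 0.05 and 0.02. Of all probes 21.0%, 13.7% and 11.0% were called, and the TKO count is near that share. Tfcp2l1, a STAT3 target of the naive network, rose in all 3 lines, by 2.56 ± 0.13 in J1, 2.78 ± 0.16 in TKO and 2.24 ± 0.18 in 3B3-3l (limma, adjusted p = 8.1e-09, 5.16e-08 and 1.06e-06). Junb fell in all 3, by 1.65 ± 0.25, 1.76 ± 0.30 and 1.96 ± 0.33. Klf4 rose by 1.11 ± 0.15 in 3B3-3l. Stat3 itself, added after its values were seen, was 0.61 ± 0.10 higher in J1-2i, 0.65 ± 0.12 in TKO-2i and 0.26 ± 0.14 in 3B3-3l-2i, each under 2-fold. The second Stat3 probe gave 0.59 ± 0.16, 0.32 ± 0.19 and 0.35 ± 0.21, and by it 3B3-3l was not lower than TKO.

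Of 15 naive pluripotency genes, 8 rose in J1-2i with none falling, 4 rose in TKO-2i with none falling, and 4 rose and 1 (Dppa3) fell in 3B3-3l-2i, beside 21.0%, 13.7% and 11.0% of all probes called. Median responses were 1.07, 0.27 and 0.12. Prdm14, which represses Dnmt3b and Dnmt3l, rose by 2.79 ± 0.10 (J1), 1.57 ± 0.12 (TKO) and 1.25 ± 0.13 (3B3-3l) (limma, adjusted p = 2.62e-10, 4.31e-07 and 1.14e-05), and Tbx3 rose by 2.35 ± 0.10, 2.02 ± 0.12 and 1.44 ± 0.13.

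Of the 14 germline genes tested, 3 rose and 8 fell in J1-2i, 1 rose and 8 fell in TKO-2i and 3 rose and 2 fell in 3B3-3l-2i, with median responses of -1.71, -1.64 and -0.06 (21.0%, 13.7% and 11.0% of all probes called). Stra8, a gene of meiotic entry, rose by 4.11 ± 0.21 in 3B3-3l-2i (limma, adjusted p = 2.85e-08) and Dazl by 2.00 ± 0.24 (limma, adjusted p = 4.62e-05). Tex101 fell at least 4.55-fold in TKO-2i (limma, adjusted p = 6.72e-07) and at least 3.35-fold in J1-2i (limma, adjusted p = 1.34e-08). The difference between the 3B3-3l and TKO responses was called for 11 of the 14, 10 higher and 1 lower (8.66% of all probes).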

How the data were processed

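Total RNA was labelled with Cy3 and hybridised by the authors to 1-colour Agilent 8x60K mouse arrays, which gave 16 scanner files. Feature Extraction 11.5.1.1 made the intensity values, background-corrected processed signals and flags (per the file headers). The deposited value table holds log2 values of 30170 probes, normalized by the authors. It was used as an alternative, and 13 of its 16 columns matched another replicate of the same group better than the one it is labelled with.

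Processed signals of the 55681 non-control probes were put on the log2 scale, and each array's 75th percentile was subtracted. Non-uniform and outlier spots were left out, spots of a probe were averaged, and a probe was well above background if at least 50% of its spots were. The 26993 probes that passed this on all arrays of some group were fitted with limma 3.58.1 (R 4.3.3) as 6 group means over 16 arrays, with Benjamini-Hochberg adjustment over all probes. Calls needed an adjusted p of at most 0.05 and 2-fold. For 755 of the probes at least 1 array had no value; of the family, this held for Oog2 and Pramel48. Bounds set each array of the dim group to the higher of its limit of detection and its own value. They are given where all arrays of the brighter group were well above background. Some values above that limit were not marked as well above background, so the bounds are approximate. The probe with the highest mean stood for a gene. The fit was tested on simulated data.

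Alternatives were normexp (offset 50), median scaling, quantile normalization, the authors' table, other filters, no fold limit, slide and replicate blocks, and leaving out each array. Normexp used median intensities, as the files hold no mean signal. Genes named were all Pramel probes, all genes of the Uhrf1 list and up to 3 called genes of each other list. The 3 most similar genes were named for Pramel6 and Pramel7. For the wider family the first was named, except for Oog2 and Pramel48, which lacked a value on some array. The members and lists were chosen with earlier results of these data known. Array numbers (2 to 4 per group) limit precision.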

Additional observations from a re-analysis of the deposited data

Results flagged for a closer look

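Each of these results stood out because the fitted 2i response differed between lines. For Pramel7 the difference was -1.33 (3B3-3l minus J1) and -1.33 (3B3-3l minus TKO) on the log2 scale. For Dppa3 it was -5.33 and -5.66. The values of the wider family follow. For TKO minus J1 the differences were -1.58 for Pramel14, -1.44 for Pramel19, -2.29 for Pramel20, -2.83 for Pramel30, -2.31 for Pramel31, -3.60 for Pramel39 and -2.55 for Pramel50. For 3B3-3l minus J1 they were 2.30 for E330014E10Rik, 4.44 for Pramel19, 2.36 for Pramel20, -1.92 for Pramel30, 2.48 for Pramel31, 3.55 for Pramel39 and 3.66 for Pramel50. For 3B3-3l minus TKO they were 5.89 for Pramel19, 4.65 for Pramel20, 4.80 for Pramel31, 7.16 for Pramel39 and 6.22 for Pramel50. Except for Pramel20, each of these differences includes at least 1 group with no array or only some arrays above background, so its size is not a measured value and sizes have no order. The differences of the Pramel genes are a description, since their levels led to the choice of the genes. No J1-serum array exceeded Dixon's critical value for these genes, and groups of 2 or 3 arrays were not examined in this way.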

How the results depend on the processing

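Of the alternative values of Pramel6 and Pramel7, 456 kept their side of the threshold, 10 gained a call and 14 lost one. For the other PRAME-like genes these numbers were 3253, 37 and 56, and for the Uhrf1 list 2190, 25 and 5. The direction of values without a call was not compared. None of the called values reversed. Pramel6 and Pramel7 were well above background on all arrays of 2 of the 6 groups each.

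Of Pramel6 and Pramel7, with no called gene for the J1 2i response, median scaling, quantile normalization and the authors' table each called 1, no fold limit called 2, and leaving out an array called 0 to 1 (1 without J1-serum replicate 2 or 3). For the TKO 2i response, no fold limit called 2, where it called 32.1% of all probes. For the 3B3-3l 2i response, normexp called 0, no fold limit 2, and leaving out an array 0 to 1 (0 without 3B3-3l-serum replicate 2 or 3B3-3l-2i replicate 1). For TKO against J1 in 2i, normexp, median scaling, quantile normalization and the authors' table each called 0. Shares of all probes were 7.81% with median scaling, 7.3% with quantile normalization and 5.02% with the authors' table. Leaving out an array called 0 to 1 there (0 without any 1 of the J1-2i arrays or TKO-2i replicate 2). For 3B3-3l against J1 in 2i, normexp called 0 and leaving out an array 1 to 2 (2 without 3B3-3l-2i replicate 2). Normexp called 0 for the differences 3B3-3l minus J1 and 3B3-3l minus TKO, where it called 12.3% and 6.17% of all probes. Causes were not tested. The filter for probes above background on all arrays left neither gene, so it was not run for them.

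Of the other PRAME-like genes, the authors' table holds 9 and the filter for all arrays leaves 4, which by construction lowers the counts. With the authors' values, 2, 4 and 4 were called for the 2i response in J1, TKO and 3B3-3l, 4 for TKO against J1 in 2i, 0 for 3B3-3l against J1 in 2i, and 4, 4 and 3 for the differences TKO minus J1, 3B3-3l minus J1 and 3B3-3l minus TKO. With the filter the counts were 0, 1 and 2 for the 2i responses, 1 for TKO against J1 in serum and 1 in 2i, 1 for 3B3-3l against J1 in serum and 0 in 2i, and 1 for each difference. For TKO against J1 in serum, normexp called 1, no fold limit 6, and leaving out an array 1 to 4 (1 without J1-serum replicate 1 or TKO-serum replicate 2). For 3B3-3l against J1 in 2i, no fold limit called 5 and leaving out an array 1 to 4 (1 without J1-2i replicate 1). Over the 10 comparisons the share of all probes called was 5.02% to 16.2% with the authors' table, 3.23% to 13.8% with the filter for all arrays and 13.7% to 48.3% with no fold limit. For TKO against J1 in serum it was 11.6% with normexp, 39.4% with no fold limit and 13.9% to 16.8% leaving out an array, and for 3B3-3l against J1 in 2i 40.1% with no fold limit and 12.7% to 15.9% leaving out an array, so the counts with no fold limit are near the share of all probes.

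Replicate numbers gave no clear pairing: of 33 same-numbered pairs, 6 had deviations correlated over 0.1 (-0.27 to 0.29). The highest, 0.29, was that of 3B3-3l-serum with 3B3-3l-2i, a single value counted under both numbers. Numbers may be swapped within groups, so this cannot show whether samples were paired. With the replicate block, calls of Pramel6 and Pramel7 were 0 to 1 per comparison as without it, and those of the other genes 2 to 8. The share of all probes called was 7.33% to 20.4%. For 3B3-3l against J1 in 2i the other genes gave 2 in place of 3 (14.5% of all probes). With the slide block Pramel6 and Pramel7 kept each call, and 2 to 8 of the other genes were called (9.01% to 20.7% of all probes). It gave 2 in place of 3 for TKO against J1 in serum (15.4% of all probes). For 3B3-3l against J1 in 2i it gave 4 in place of 3 (10.5%), and for 3B3-3l minus J1 6 in place of 7 (16.3%). E330014E10Rik lost 3 of its 4 calls. Median scaling moved the median of all probes by 0.16 for the J1 2i response, 0.13 for 3B3-3l and -0.14 for TKO minus J1.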
